A study of Mus musculus with 8 samples.

Results

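The genes described here are 35 genes of the ATF4 stress pathway and of amino acid supply, compared between lung tumors of 2 genotypes. They were chosen by symbol: regulators and stress effectors (8 genes), enzymes that make asparagine, proline and serine (6), folate one-carbon enzymes (5), amino acid transporters (6) and cytosolic aminoacyl-tRNA synthetases (10). All 35 were found among the 48709 genes of the count table, and all 35 were among the 14929 genes with enough reads to test. The choice used no cutoff on expression, but it was made with earlier results of these data known.

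The tumors arose in *K* mice, whose lung tumors are started by Cre recombinase, on a mixed B6J/129S4vJae background. Both groups received the same lentiviral vector, LentiCRISPRv2Cre, by endotracheal intubation, so every tumor had Cre and the Cas9 nuclease. In *K-Ctrl* (4 tumors) the vector carried a guide RNA against *GFP*, and in *K-Setd2KO* (4 tumors) a *Setd2* guide RNA. *Setd2* encodes the enzyme that trimethylates histone H3 lysine 36. Whole flash-frozen tumors were sequenced, so stroma and immune cells contributed RNA, and Cas9 editing can differ between the cells of a tumor. The labels' extraction text speaks of cell lines instead, and the mice were at most 20 weeks old when tumors were started, and the time to harvest and which mouse each tumor came from are not given in the sources used here. The p-values therefore measure only the spread between these tumors.

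ATF4 is a transcription factor whose translation rises when the initiation factor eIF2 is phosphorylated by a family of kinases that sense lack of amino acids, misfolded protein, heme deficiency or double-stranded RNA. It pairs with C/EBP family proteins and switches on genes for amino acid uptake, amino acid synthesis, mitochondrial folate metabolism and the charging of tRNAs, together with feedback inhibitors of the response. In tumor cells these genes are known to supply serine, glycine, asparagine and one-carbon units for growth, and mTORC1 can raise ATF4 without stress.

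The DNA element best known for ATF4 is the C/EBP-ATF response element, and the letters TGATGNAA (reverse complement TTNCATCA) were looked for on both strands of RefSeq promoter windows on GRCm38.p6, which reach from 250 bases before to 50 bases after a gene's start. Of 33 windows for the 30 members that have one in the RefSeq table used, 10 windows (30.3%) of 10 members held these letters, against 1304 of 32851 promoters (3.97%) of all genes. The windows of the other 20 members did not hold them. The 30-base stretches around 7 of the 11 matches are shown because they let the matching element be read directly. Each is written 5′ to 3′ on the gene's strand with the matching letters in capitals:
Asns, chr6:7693214-7693243, minus strand: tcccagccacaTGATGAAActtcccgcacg
Chac1, chr2:119351038-119351067, plus strand: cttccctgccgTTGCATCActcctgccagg
Trib3, chr2:152344028-152344057, minus strand: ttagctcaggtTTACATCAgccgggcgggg
Pycr1, chr11:120643833-120643862, minus strand: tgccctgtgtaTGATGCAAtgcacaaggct
Slc1a4, chr11:20332699-20332728, minus strand: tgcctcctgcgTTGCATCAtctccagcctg
Tars, chr15:11399655-11399684, minus strand: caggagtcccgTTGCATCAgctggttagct
Aars, chr8:111033840-111033869, plus strand: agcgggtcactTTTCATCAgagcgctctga

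Among the stretches shown, the letters TTGCATCA recur in *Chac1*, *Slc1a4* and *Tars*, and TGATGCAA in *Pycr1* is the same element on the other strand. The other matches lay in *Gars*, *Iars*, *Yars* and, as a further match, *Aars*. The windows of *Slc38a2* and *Phgdh*, the 2 members past the test, did not hold these letters. Promoters of *Slc7a5*, *Slc1a5*, *Cars*, *Nars* and *Wars* were not analysed. A match describes the sequence and does not show that ATF4 binds there.

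Most of the 35 genes did not pass the test between genotypes. *Slc38a2*, an amino acid transporter, was higher in *K-Setd2KO* by 0.45 ± 0.10 on the log2 scale, and *Phgdh*, the entry enzyme of serine synthesis, was lower by a log2 fold change of -1.08 ± 0.26 (SE, 4 tumors in each group). These are 1 member called higher and 1 called lower at an adjusted p under 0.05 (edgeR quasi-likelihood test, adjusted over all genes), where 4.97% of all genes tested were called higher and 7.74% lower (12.7% in all). The same 2 genes were the only members whose 4 tumors of one genotype did not overlap the 4 of the other, a pattern found in 20.3% of all genes (9.06% higher and 11.2% lower in *K-Setd2KO*). At an unadjusted p under 0.05 there were 4 members, the others being *Sesn2* (higher) and *Cebpb* (lower), against 29.9% of all genes.

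The log2 fold changes of the members were above 0 for 25 and below 0 for 10, with a median of 0.12, beside 52.7% above 0 and a median of 0.03 over all genes tested. By group the medians were 0.21 for the regulators, -0.06 for the synthesis enzymes, 0.04 for the folate enzymes, 0.32 for the transporters and 0.07 for the synthetases. Leaving out *K-Ctrl* replicate 4 moved the median of all members to 0.31 and the number called higher from 1 to 2. Without *K-Ctrl* replicate 2 or 3 the median of the members was 0.02, beside 0.03 over all genes, with 20 and 19 members above 0.

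**Figure D1:**
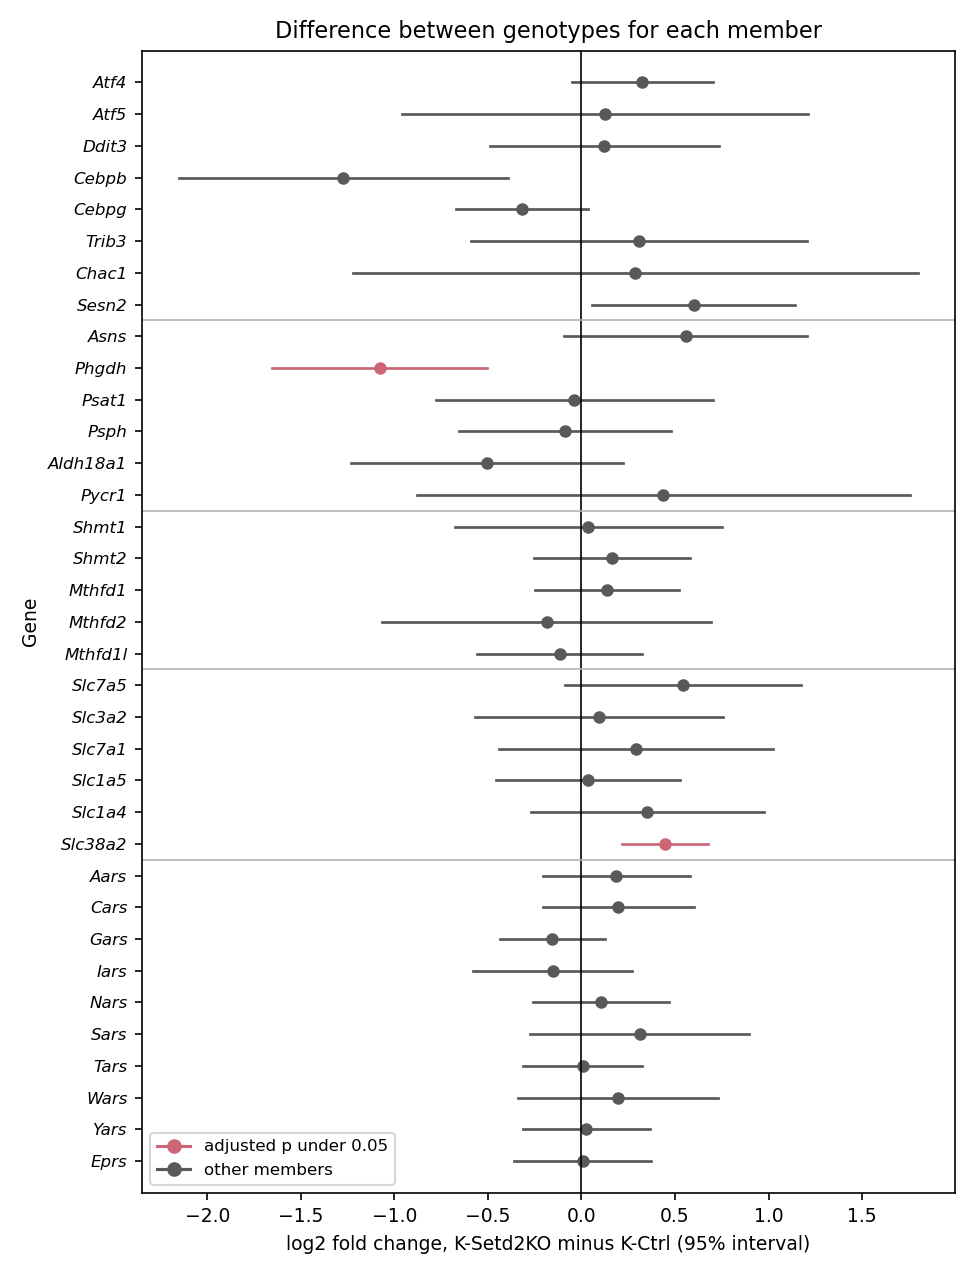
Log2 fold change of each member, *K-Setd2KO* minus *K-Ctrl*, from the edgeR fit (x axis), with 1 line per gene (y axis), where points are estimates and bars are 95% intervals for that gene alone, from 4 tumors a group. Red marks *Slc38a2* (0.45) and *Phgdh* (-1.08), the 2 members past an adjusted p of 0.05, and 31 of the other bars cross 0.

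The clearest pattern over the members was a difference among the control tumors. The tumor was singled out after the values were seen, and the members share a pathway, so they are not independent observations of it. *K-Ctrl* replicate 4 was the highest control tumor for 29 of the 35 members (82.9%), against 27.2% of all genes tested. That included 9 of 10 synthetases, all 6 synthesis enzymes and 6 of 8 regulators. The excess over the mean of the other 3 control tumors had a median of 0.53 on the log2 CPM scale over the members, beside -0.02 over all genes. CPM here are counts scaled to a common library size. The largest excesses were those of *Chac1* (2.04), *Mthfd2* (1.49), *Atf5* (1.49), *Trib3* (1.45), *Pycr1* (1.23) and *Asns* (1.15), while *Cebpb* was lower there by -1.25. Of the 10 members whose promoter window held TGATGNAA, 8 were highest in this tumor (median excess 0.50). Of the 20 whose window did not, 16 were (median excess 0.54).

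At the low end, *K-Ctrl* replicate 3 was the lowest control for 16 members (45.7%), against 16% of all genes. Among the *K-Setd2KO* tumors, replicate 3 was the lowest for 21 members (60%), against 24.1% of all genes. It was lowest for 8 of 10 synthetases and for 6 of 8 regulators but for 0 of 6 transporters. Replicate 2 was the highest *K-Setd2KO* tumor for 14 members (40%, beside 26.5% of all genes), among them 6 of the 8 regulators. The mean of the members' centered log2 CPM, in which each gene counts equally, was -0.10, -0.17, -0.25 and 0.40 in the 4 *K-Ctrl* tumors, in order of replicate number, and 0.06, 0.20, -0.22 and 0.08 in the 4 *K-Setd2KO* tumors. *K-Ctrl* replicate 4 thus stood above every *K-Setd2KO* tumor, the other 3 controls were low, and the groups overlapped.

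**Figure D2:**
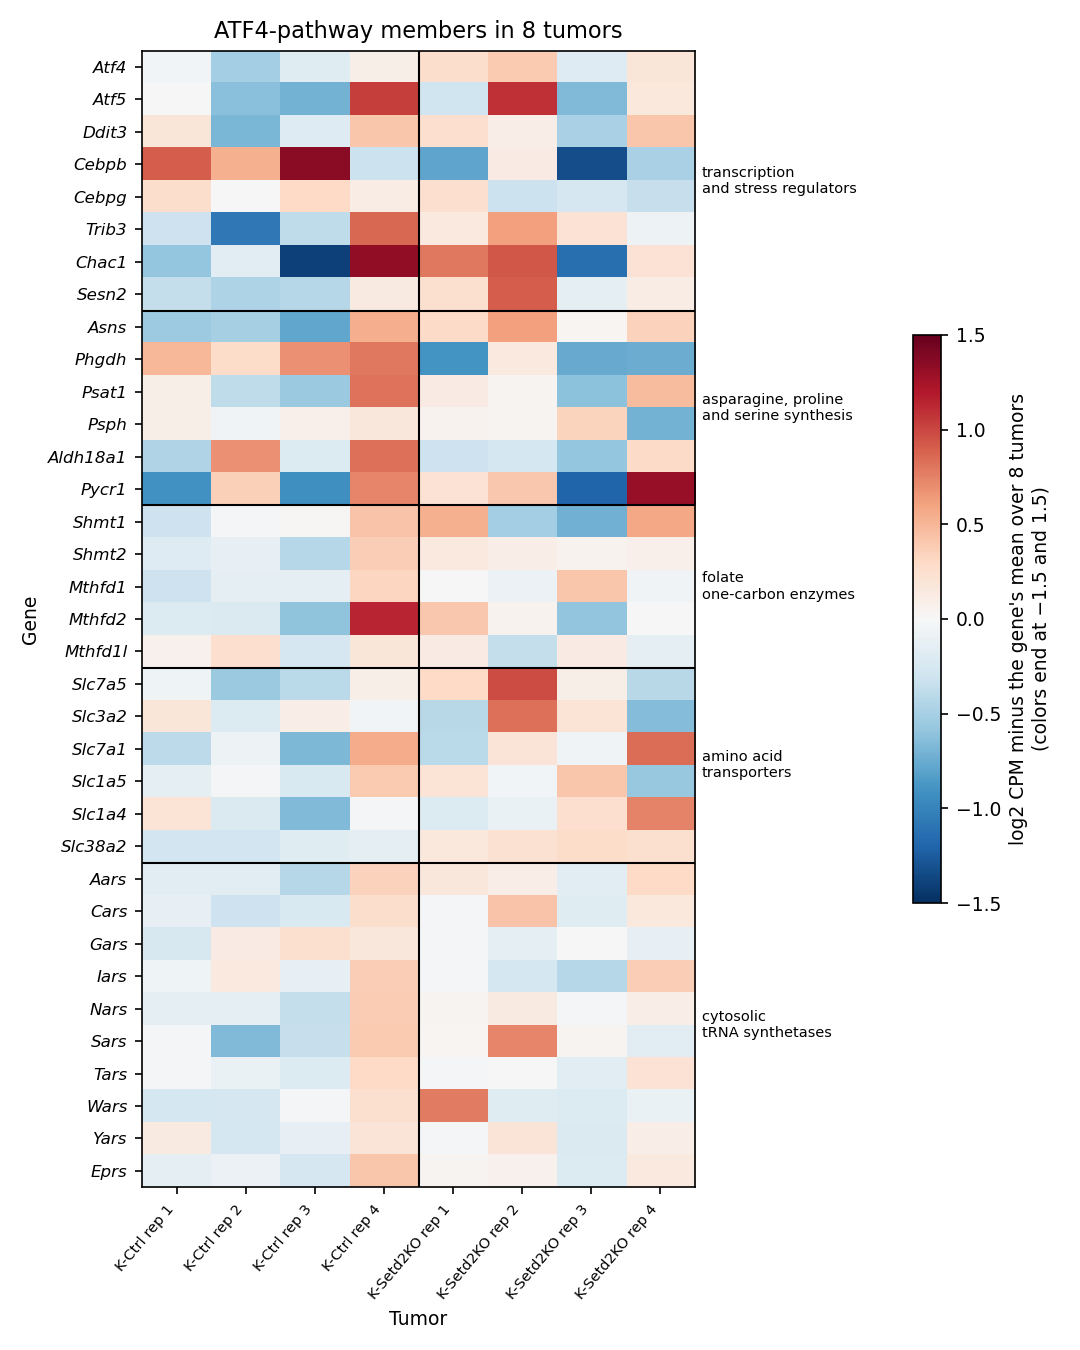
Level of each member (rows, grouped by role) in each tumor (columns), as log2 CPM minus that gene's mean over the 8 tumors, red for higher and blue for lower. The *K-Ctrl* replicate 4 column is red for most genes, with a member mean of 0.40, and the *K-Setd2KO* replicate 3 column is mostly blue, with a member mean of -0.22.

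Some lists of related genes that were not members showed the *K-Ctrl* replicate 4 pattern and others did not, beside 27.2% of all genes. *K-Ctrl* replicate 4 was the highest control for 9 of 18 further ATF4 target genes (50%), 11 of 16 endoplasmic reticulum chaperone and ATF6 or XBP1 genes (68.8%) and 6 of 10 other cytosolic synthetases (60%). It was so for 8 of 17 mitochondrial synthetases (47.1%), 5 of 13 genes of the eIF2 kinases, phosphatases and eIF2B (38.5%) and 3 of 12 other folate and glycine genes (25%), and in these lists the median excess was at most 0.07 on the log2 scale. Its depth of 11191015 counts was the lowest of the 4 controls, with *K-Ctrl* replicate 2 next at 11482887. Over the 8 tumors the range was 5806599 to 21290402. Of the 4 controls it had the highest summed level of 10 lung epithelial markers (44650 CPM, others 29630 to 33520, most of it *Sftpc*) and of 6 fibroblast markers (1121 CPM, others 497.1 to 866.5). It had the lowest of 8 macrophage markers (586.3 CPM, others 1040 to 1710), of 6 leukocyte markers (970.8 CPM, others 1022 to 1745) and of 6 neutrophil markers (11.6 CPM, others 13.2 to 19.9). The part of these in the pattern was not tested.

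**Figure D3:**
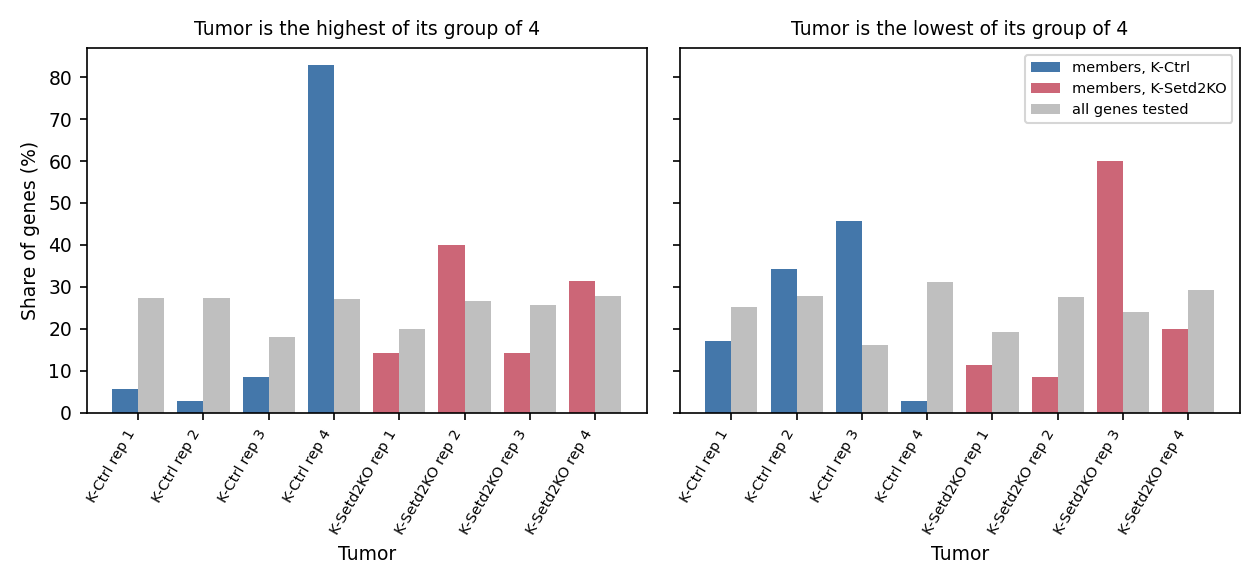
Share of genes (y axis, percent) for which a tumor (x axis) was the highest (left) or lowest (right) of its own group of 4, for the 35 members (blue and red bars) and for all 14929 genes tested (grey bars). *K-Ctrl* replicate 4 was highest for 82.9% of the members and *K-Setd2KO* replicate 3 lowest for 60%, against 27.2% and 24.1% of all genes.

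Of the 8 regulators, 0 passed the adjusted test, beside 12.7% of all genes, a share at which few of 8 genes would pass. *Atf4* itself was abundant, and per length of transcript it was the most highly expressed member, with control tumors at 73.0 ± 12.5 RPKM (CPM per kilobase of exon) and *K-Setd2KO* tumors at 91.4 ± 15.003 RPKM (SD over 4 tumors), ahead of *Nars* in the controls (71.0 RPKM) and of *Slc38a2* in *K-Setd2KO* (78.7 RPKM) by less than these SDs. Its level was 135.1, 97.7, 122.4 and 148.1 CPM in *K-Ctrl*, here and below in order of replicate number, and 166.7, 183.3, 122.1 and 158.3 CPM in *K-Setd2KO*. Replicate 3 of *K-Setd2KO* lay within the control range, and the other 3 lay above it. The log2 fold change of *Atf4* was 0.33 ± 0.17 (SE), with a 95% interval of -0.05 to 0.70 and an adjusted p of 0.225 (edgeR). ATF4 is controlled largely at translation, which mRNA counts do not measure.

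*Cebpb*, a C/EBP partner of ATF4 that is also strongly expressed in macrophages, had the smallest p of the regulators. It was at 78.4, 60.7, 107.1 and 33.5 CPM in *K-Ctrl* and at 24.1, 45.4, 16.5 and 29.8 CPM in *K-Setd2KO*. The groups overlapped only through *K-Ctrl* replicate 4, which lay below *K-Setd2KO* replicate 2. The log2 fold change was -1.27 ± 0.39 (SE), which missed the threshold (adjusted p = 0.0628, edgeR). It passed without *K-Ctrl* replicate 4 (adjusted p = 0.026), without *K-Setd2KO* replicate 2 (adjusted p = 0.0353) and in the DESeq2 Wald test that the study's own comparison used (adjusted p = 0.00957). DESeq2 called 6.5% of the genes it tested higher and 10.4% lower. The summed macrophage markers, 5 of 8 of them called lower by edgeR beside 7.74% of all genes, were at 1040, 1097, 1710 and 586.3 CPM in *K-Ctrl* and at 382.0, 358.4, 253.4 and 198.5 CPM in *K-Setd2KO*. Within *K-Ctrl*, *Cebpb* and these markers were both highest in replicate 3 and lowest in replicate 4. Within *K-Setd2KO* the orders differed, with *Cebpb* highest in replicate 2 and lowest in replicate 3 and the markers highest in replicate 1 and lowest in replicate 4. The part of the macrophage level in the *Cebpb* difference was not tested. In whole tumors, fewer cells of a type and less RNA per cell cannot be told apart.

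*Sesn2*, a leucine sensor that restrains mTORC1 and is induced by ATF4 and p53, was at 30.5, 28.2, 29.0 and 42.7 CPM in *K-Ctrl* and 46.1, 73.7, 35.4 and 42.1 CPM in *K-Setd2KO*. Each *K-Setd2KO* tumor exceeded 3 of the 4 controls, and the highest control lay among them. The log2 fold change was 0.60 ± 0.24 (SE), with an unadjusted p of 0.0335 and an adjusted p of 0.132 (edgeR), and it was 0.33 without *K-Setd2KO* replicate 2. *Cebpg*, another C/EBP partner of ATF4, had group means of 190.8 ± 17.96 and 153.1 ± 32.5 CPM (SD) and a log2 fold change of -0.32 (adjusted p = 0.209, edgeR). *K-Setd2KO* replicate 1 was at 201.4 CPM and the other 3 at 133.0 to 142.6 CPM, below every control, and without that tumor the log2 fold change of *Cebpg* was -0.48, at the threshold (adjusted p = 0.05, edgeR).

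The other 4 regulators had wide intervals. *Chac1*, which breaks down glutathione, was at 0.74 to 5.71 CPM in *K-Ctrl* and at 0.92 to 4.28 CPM in *K-Setd2KO*, and its 95% interval of -1.22 to 1.80 on the log2 scale was the widest of all members. *Trib3*, a pseudokinase that damps the response, had a log2 fold change of 0.31 (interval -0.59 to 1.20). *Atf5*, a relative of ATF4, gave 0.13 (-0.96 to 1.21), and *Ddit3*, which encodes the pro-apoptotic factor CHOP, gave 0.12 (-0.49 to 0.73). These differences were not detectable against the spread between tumors.

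Among the 6 synthesis enzymes, *Phgdh* fell and the other 5 did not pass. *Phgdh* (ENSMUSG00000053398.11, chr3:98313170-98339990 on GRCm38, minus strand, protein-coding) encodes phosphoglycerate dehydrogenase, which draws serine carbon from glycolysis. Its level was 23.6, 20.3, 27.0 and 29.1 CPM in *K-Ctrl* and 8.89, 18.5, 9.87 and 9.93 CPM in *K-Setd2KO*. Every *K-Setd2KO* tumor was below every control, with replicate 2 close to the lowest control and the other 3 far below. The group means were 25.0 ± 3.87 and 11.8 ± 4.50 CPM (SD, n = 4 each), with a fitted fold of 0.473. The log2 fold change of *Phgdh* had a 95% interval of -1.65 to -0.50 and an adjusted p of 0.0273 (edgeR).

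The *Phgdh* call depended on single tumors, while the direction did not. Its log2 fold change lay between -1.39 and -0.96 in all 19 alternatives, and it passed in 9 of them. The edgeR call was lost without *K-Ctrl* replicate 1 (adjusted p = 0.0593), 3 (0.0776) or 4 (0.0525) and without *K-Setd2KO* replicate 1 (0.0616), 3 (0.0739) or 4 (0.0599). With sex as a term it was lost as well (adjusted p = 0.0855). By expression of sex-linked genes, *K-Ctrl* held 3 male tumors and 1 female and *K-Setd2KO* 1 male and 3 female, so sex was unbalanced. *Phgdh* differed by -1.43 among the male tumors and -0.70 among the female tumors on the log2 scale, each with a single tumor on one side.

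The genes of the later steps of the serine pathway did not pass the test, and their difference from *Phgdh* was not tested. *Psat1*, the transaminase of the middle step, had means of 42.0 ± 19.4 and 40.8 ± 11.9 CPM (SD) and a log2 fold change of -0.04 (interval -0.78 to 0.70). *Psph*, the phosphatase of the last step, had means of 6.90 ± 0.45 and 6.44 ± 1.82 CPM and a log2 fold change of -0.09 (interval -0.66 to 0.48). The exons of *Psph* share 452 bases with *Cct6a* on the opposite strand, which had 13712 counts against 754 for *Psph*, and the strand setting of the counting is not stated, so the value of *Psph* is uncertain.

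*Asns*, asparagine synthetase and a standard reporter of ATF4 activity, was at 21.7, 22.3, 18.3 and 46.2 CPM in *K-Ctrl* and at 38.5, 48.5, 32.2 and 40.0 CPM in *K-Setd2KO*. All 4 *K-Setd2KO* tumors exceeded 3 of the controls, and *K-Ctrl* replicate 4 exceeded 3 of the *K-Setd2KO* tumors. With all 8 tumors the log2 fold change of *Asns* was 0.56 ± 0.29 (SE, adjusted p = 0.230, edgeR). Without *K-Ctrl* replicate 4 it was 0.94 (adjusted p = 0.0141). *Asns* lies on chromosome 6, whose level is described further on.

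The 2 proline enzymes gave opposite signs and passed no test. *Aldh18a1*, which makes the pyrroline-5-carboxylate that proline comes from, had means of 19.5 ± 8.26 and 13.8 ± 3.76 CPM (SD) and a log2 fold change of -0.50 (interval -1.23 to 0.22). *Pycr1*, the mitochondrial enzyme that completes proline synthesis, had means of 3.38 ± 2.00 and 4.60 ± 2.97 CPM and a log2 fold change of 0.44 (interval -0.88 to 1.76).

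Of the 5 folate enzymes, 0 passed the test at an adjusted or unadjusted p under 0.05, beside 12.7% and 29.9% of all genes. The smallest p was that of *Shmt2*, the mitochondrial serine hydroxymethyltransferase that turns serine into glycine and a one-carbon unit. *Shmt2* was at 15.8, 16.6, 13.3 and 23.4 CPM in *K-Ctrl* and at 20.03, 19.3, 18.7 and 18.998 CPM in *K-Setd2KO*. The *K-Setd2KO* tumors were close to each other, above 3 controls and below the fourth, and the log2 fold change of *Shmt2* was 0.16 ± 0.19 (SE, interval -0.26 to 0.58). Its cytosolic counterpart *Shmt1* gave 0.04 (interval -0.68 to 0.75). *Mthfd1*, the cytosolic enzyme that interconverts one-carbon folates, gave 0.14 (interval -0.25 to 0.52), and *Mthfd1l*, the mitochondrial formate producer, gave -0.12 (interval -0.56 to 0.32).

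*Mthfd2*, a mitochondrial folate dehydrogenase that is low in most adult tissues and raised in many tumors, showed the control pattern most plainly among these enzymes. It was at 16.0, 16.0, 12.2 and 41.2 CPM in *K-Ctrl* and at 24.7, 19.3, 12.3 and 18.5 CPM in *K-Setd2KO*. Its log2 fold change was -0.19 (interval -1.06 to 0.69), with a single control above all other tumors.

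All 6 transporters had a log2 fold change above 0, and *Slc38a2* was the 1 that passed the test. *Slc38a2* (ENSMUSG00000022462.6, chr15:96687394-96699698 on GRCm38, minus strand, protein-coding) encodes a sodium-coupled carrier of small neutral amino acids such as alanine, serine and glutamine, and is known to rise when amino acids are scarce. Its level was 254.8, 255.9, 274.4 and 283.4 CPM in *K-Ctrl* and 347.7, 365.4, 376.3 and 367.8 CPM in *K-Setd2KO*. The 4 tumors of each group were close together, with a clear gap between the groups. The means were 267.1 ± 14.1 and 364.3 ± 12.02 CPM (SD, n = 4 each), a 1.36-fold difference, and per length 57.7 ± 3.04 and 78.7 ± 2.60 RPKM.

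The 95% interval for *Slc38a2* on the log2 scale was 0.22 to 0.68, with an adjusted p of 0.0245 (edgeR). It lay between 0.41 and 0.50 in all 19 alternatives, and it was 0.47 among the male tumors and 0.49 among the female tumors. The excess of *Slc38a2* in *K-Ctrl* replicate 4 over the other controls was 0.12 on the log2 scale, below the median of 0.53 over the members. The edgeR call was lost without *K-Ctrl* replicate 1 (adjusted p = 0.0757), 2 (0.066) or 3 (0.0746), without *K-Setd2KO* replicate 3 (0.0547), with sex as a term (0.0514) and with no filter on low counts (0.0676), and it held in 11 of the 19.

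*Slc7a5* and *Slc3a2* encode the chains of the leucine exchanger that feeds mTORC1. *Slc7a5* was at 32.7 to 51.2 CPM in *K-Ctrl* and at 59.2, 95, 51.4 and 36.1 CPM in *K-Setd2KO*, and its log2 fold change was 0.54 ± 0.28 (SE, adjusted p = 0.227, edgeR), which became 0.23 without *K-Setd2KO* replicate 2. *Slc3a2* gave 0.09 (interval -0.57 to 0.76). Replicate 2 of *K-Setd2KO* was the highest of the 8 tumors for both chains and replicate 4 the lowest of its group.

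The remaining 3 transporters did not pass either. *Slc7a1*, the carrier of arginine and lysine, gave a log2 fold change of 0.29 (interval -0.44 to 1.02), and *Slc1a4*, which carries alanine, serine and cysteine, gave 0.35 (interval -0.27 to 0.97). *Slc1a5*, the glutamine carrier, gave 0.03 (interval -0.46 to 0.53). For *Slc7a1* and *Slc1a4* the highest *K-Setd2KO* tumor was replicate 4, and for *Slc1a5* it was replicate 3, so the transporters did not rank the tumors alike.

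**Figure D4:**
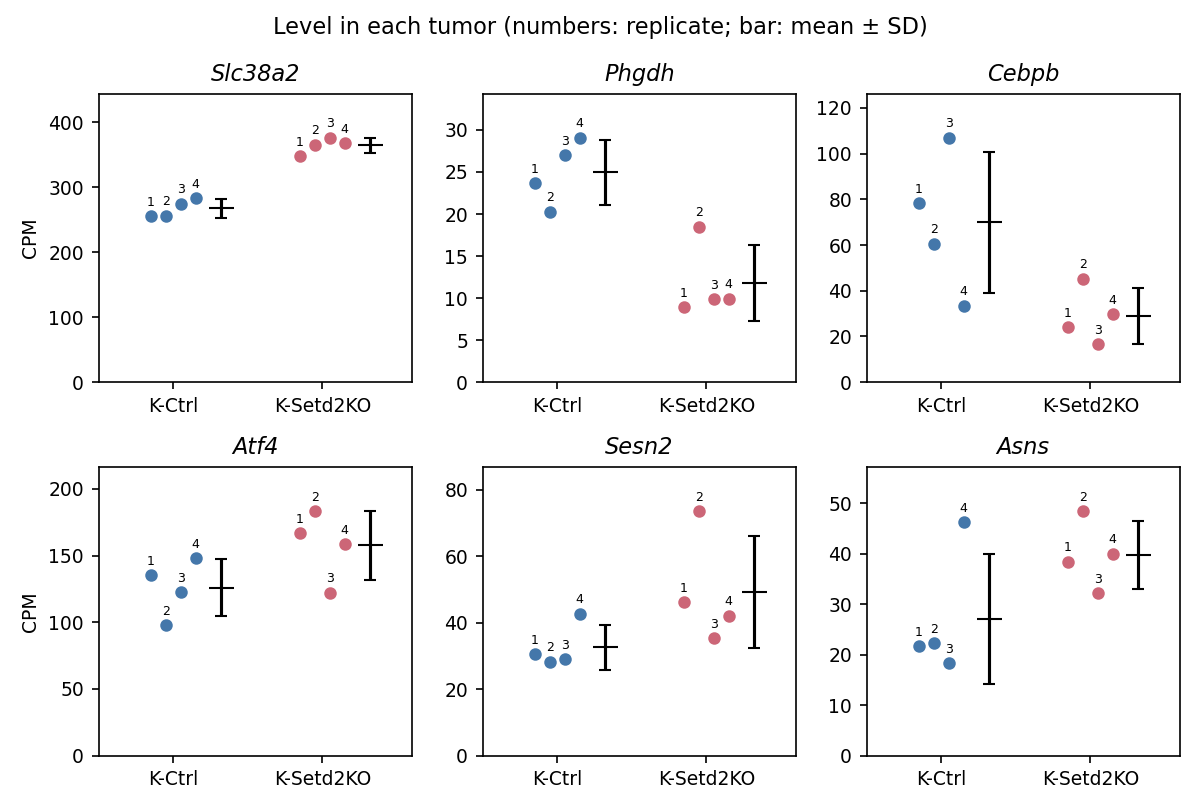
Level in CPM (y axis, from 0) of 6 members in each tumor, with points numbered by replicate, blue for *K-Ctrl* and red for *K-Setd2KO*, and the bar at the right of each group giving mean ± SD (n = 4). *Slc38a2* (267.1 against 364.3 CPM) and *Phgdh* (25.0 against 11.8 CPM) did not overlap between groups, while for *Sesn2* and *Asns* the overlap came from *K-Ctrl* replicate 4, at 42.7 and 46.2 CPM.

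The 10 cytosolic synthetases, which load amino acids onto tRNAs, showed no called difference (0 of 10, beside 12.7% of all genes, with 0 also at an unadjusted p under 0.05, beside 29.9%). Their log2 fold changes ran from -0.16 to 0.31, with 8 above 0. The smallest p was that of *Gars* (glycine), at 88.1, 113.0, 122.3 and 116.6 CPM in *K-Ctrl* and 101.7, 93.5, 104.6 and 94.99 CPM in *K-Setd2KO*. Its log2 fold change was -0.16 ± 0.12 (SE, adjusted p = 0.433, edgeR), the lowest of the 10 and against the sign of most.

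The 95% intervals bound how far several synthetases can have moved. For *Tars* (threonine) the log2 interval was -0.31 to 0.32, for *Yars* (tyrosine) -0.31 to 0.37, for *Eprs* (glutamate and proline) -0.36 to 0.37 and for *Nars* (asparagine) -0.26 to 0.47. *Iars* (isoleucine) gave -0.15 (interval -0.58 to 0.27), *Aars* (alanine) 0.19 (-0.21 to 0.58) and *Cars* (cysteine) 0.20 (-0.21 to 0.60). These intervals include 0 and also modest changes either way, so they do not show that the genes were equal.

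*Sars* (serine) and *Wars* (tryptophan) had the widest intervals of the synthetases, and each had 1 high *K-Setd2KO* tumor. *Sars* gave 0.31 (interval -0.28 to 0.90), with *K-Setd2KO* replicate 2 at 280.0 CPM and the other 3 at 151.0 to 172.9 CPM. *Wars*, which interferon also induces, gave 0.19 (interval -0.34 to 0.73), with *K-Setd2KO* replicate 1 at 227.0 CPM and the other 3 at 114.9 to 123.2 CPM.

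Of the members, 3 lie on chromosome 6, namely *Asns*, *Gars* and *Mthfd2*. The median of chromosome 6 genes, as log2 CPM minus the *K-Ctrl* mean, was 0.33, -0.03, 0.32 and 0.38 in *K-Setd2KO* replicates 1 to 4, where the controls ranged from -0.03 to 0.02 and no other autosome left the range of -0.14 to 0.07 in a *K-Setd2KO* tumor. The chromosome as a whole was thus higher in 3 of the 4 *K-Setd2KO* tumors. Relative to it, the log2 fold changes fell to 0.33 for *Asns* (adjusted p = 0.541), -0.43 for *Mthfd2* (0.513) and -0.41 for *Gars* (0.0765, all edgeR). Without *K-Ctrl* replicate 4 and relative to the chromosome, *Asns* was at 0.72 (adjusted p = 0.0868), so its call without that tumor was not kept. *K-Setd2KO* replicate 2, which had no chromosome 6 shift, was the tumor with the highest *Asns*. Neither *Slc38a2* nor *Phgdh* lies on this chromosome.

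**Figure D5:**
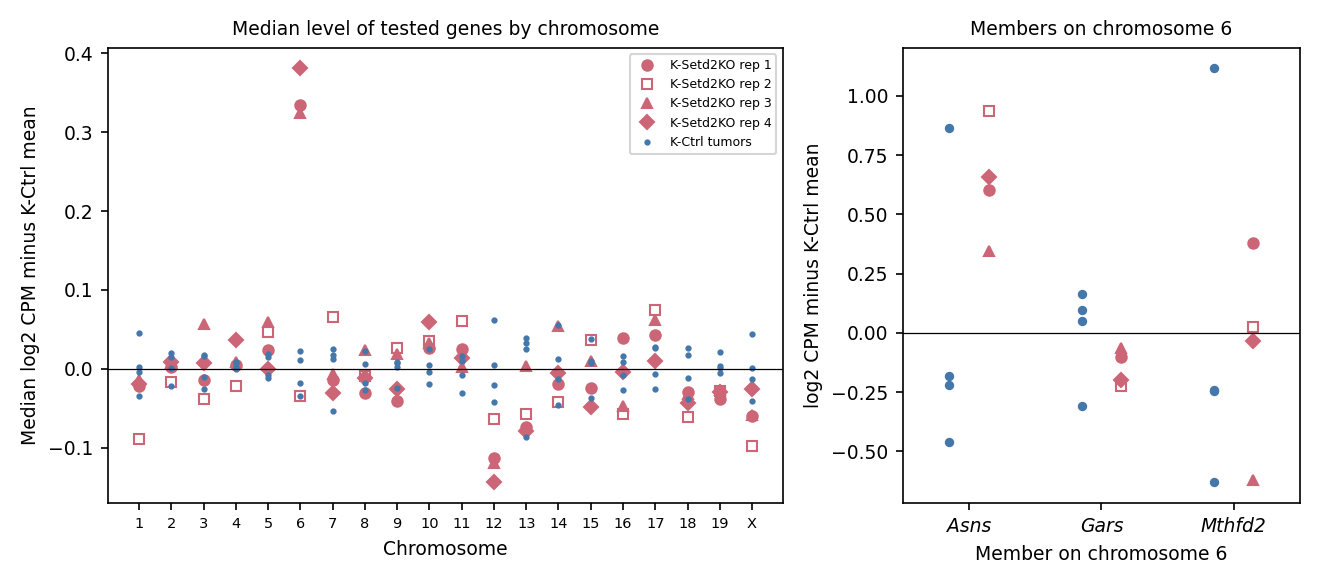
Left, median log2 CPM minus the *K-Ctrl* mean over the tested genes of each chromosome (x axis) in each tumor, with red symbols for the 4 *K-Setd2KO* tumors and blue points for the controls; right, the same difference for the 3 members on chromosome 6. *K-Setd2KO* replicates 1, 3 and 4 stand at 0.32 to 0.38 for chromosome 6 and replicate 2 at -0.03, while *Asns* is highest in replicate 2.

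Sex and genotype were only partly separable for these genes. Within a sex, 16 of the 35 members kept the same sign, and 26 were higher in *K-Setd2KO* among the female tumors (median log2 difference 0.36) while 22 were lower among the male tumors (median -0.15). The only female control was *K-Ctrl* replicate 2 and the only male *K-Setd2KO* tumor was replicate 3, the tumor that was lowest for most members, so sex and the single tumor cannot be told apart. *Atf4* gave 0.80 among the female and -0.15 among the male tumors. *Slc38a2*, *Phgdh*, *Cebpb*, *Sesn2* and *Asns* kept their direction in both. Among the male tumors *Sesn2* and *Asns* differed by only 0.06 and 0.16, beside 0.93 for each among the female tumors.

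Upstream of ATF4, 2 of 13 genes of the eIF2 kinases, their phosphatases and the exchange factor eIF2B were called higher and 0 lower (median log2 fold change 0.09), beside 4.97% of all genes called higher and 7.74% lower. *Eif2b1*, which encodes a regulatory subunit of eIF2B, was at 22.4, 22.9, 20.5 and 25.3 CPM in *K-Ctrl* and 33.4, 28.0, 36.4 and 34.2 CPM in *K-Setd2KO*. *Eif2ak4*, which encodes the kinase GCN2 that senses uncharged tRNA, was at 51.3, 53.2, 59.0 and 63.2 CPM in *K-Ctrl* and 75.3, 89.6, 90.1 and 67.4 CPM in *K-Setd2KO*. The groups did not overlap for either gene. The log2 fold changes were 0.53 ± 0.13 for *Eif2b1* (adjusted p = 0.0338) and 0.51 ± 0.13 for *Eif2ak4* (adjusted p = 0.0373, SE and edgeR for both). Leaving out single tumors took *Eif2b1* to an adjusted p of up to 0.106 and *Eif2ak4* to up to 0.105, both over the threshold without *K-Ctrl* replicate 1, 2 or 3 and without *K-Setd2KO* replicate 1 or 3. *Eif2b1* was also over it without *K-Setd2KO* replicate 4, and *Eif2ak4* without *K-Setd2KO* replicate 2. With sex as a term *Eif2b1* was lost (adjusted p = 0.063), and with no filter on low counts both were (0.0678 for *Eif2b1* and 0.058 for *Eif2ak4*). Over the 19 alternatives the log2 fold change was 0.48 to 0.61 for *Eif2b1*, which passed in 9. For *Eif2ak4* it was 0.45 to 0.62, with 10 passing.

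Of 27 synthetases outside the members, 3 were called higher and 0 lower, beside 4.97% and 7.74% of all genes. Of 17 mitochondrial synthetases 2 were called: *Vars2* (valine), at 25.2, 30.4, 32.5 and 52.1 CPM in *K-Ctrl* and 66.0, 63.8, 69.7 and 81.1 CPM in *K-Setd2KO*, and *Iars2* (isoleucine), with means of 68.5 ± 4.66 and 93.9 ± 9.12 CPM (SD). *Vars2* doubled, with a log2 fold change of 1.00 ± 0.22 (SE, adjusted p = 0.0203, edgeR), and passed in 16 of 19 alternatives. The exceptions were those without *K-Ctrl* replicate 2 (adjusted p = 0.0555), without *K-Ctrl* replicate 3 (0.0643) and without *K-Setd2KO* replicate 3 (0.0511). Of 10 other cytosolic synthetases, *Qars* (glutamine) was called, with means of 103.2 ± 4.80 and 141.4 ± 18.2 CPM and a log2 fold change of 0.46 (adjusted p = 0.0378), and *Iars2* also gave 0.46 (adjusted p = 0.0311, edgeR for both). Leaving out single tumors took *Qars* to an adjusted p of up to 0.109 and *Iars2* to up to 0.0922, both over the threshold without *K-Ctrl* replicate 1, 2 or 3 and without *K-Setd2KO* replicate 1 or 3, and *Qars* also without *K-Setd2KO* replicate 2. *Qars* was lost with sex as a term too (adjusted p = 0.0688), and with no filter on low counts both were lost (0.0746 for *Qars* and 0.0679 for *Iars2*). Over the 19 alternatives the log2 fold change was 0.39 to 0.53 for *Qars*, which passed in 9. For *Iars2* it was 0.40 to 0.56, with 12 passing. *Iars2* shares 2034 exon bases with *Rab3gap2* on the opposite strand, which had 7801 counts against 8860 for *Iars2*, and the strand setting of the counting is not stated. The partner of *Vars2*, the antisense gene *Gm20483*, had 37 counts against 5410.

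Other parts of the response held no called gene. Of 18 further ATF4 targets, 10 had a log2 fold change above 0 and 0 were called, with the smallest p for *Gdf15*, a stress hormone (-1.08, adjusted p = 0.10). Of 12 other folate and glycine genes 0 were called, with the smallest p for *Sfxn1*, the mitochondrial serine carrier (0.49, adjusted p = 0.101). Of 16 chaperone, ATF6 and XBP1 genes 0 were called, with the smallest p for *Atf6* itself (-0.44, adjusted p = 0.0876, edgeR for all). At an unadjusted p under 0.05 these lists held 3, 2 and 2 genes, where 29.9% of all genes passed that level and 12.7% the adjusted one. Of the 3 ATF4 targets at that level, 2 were higher in *K-Setd2KO* and 1 was lower. The tumors did not overlap for 1 further ATF4 target, which was higher in *K-Setd2KO*, as were 9.06% of all genes without overlap.

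Facts of all tumors bear on these values. The targeted gene did not separate the groups at the mRNA level, with *Setd2* at 132.1 to 152.7 CPM in *K-Ctrl* and 121.3 to 152.7 CPM in *K-Setd2KO* (log2 fold change -0.05, adjusted p = 0.824, edgeR), and whole-gene counts do not show small edits. Summed markers did not overlap between groups for leukocytes (970.8 to 1745 CPM in *K-Ctrl*, 517.1 to 745.7 in *K-Setd2KO*), macrophages (586.3 to 1710, 198.5 to 382.0) and proliferation (289.1 to 314.8, 98.7 to 202.8). They overlapped for endothelium (476.2 to 1839, 186.9 to 487.6), fibroblasts (497.1 to 1121, 141.4 to 583.4), B and plasma cells (160.4 to 2565, 98.7 to 589.1), T cells (17.4 to 90.5, 2.95 to 29.4), neutrophils (11.6 to 19.9, 10.6 to 20.1) and lung epithelium (29630 to 44650, 36830 to 47300). The epithelial sum was mostly *Sftpc* (21506 to 32459 CPM in *K-Ctrl*, 21877 to 30418 in *K-Setd2KO*). Of the 10 epithelial markers, *Epcam* (1.87-fold), *Krt18* (1.79-fold) and *Sftpb* (2.12-fold) were called higher and *Napsa* (0.33-fold) lower, with adjusted p of 0.0177, 0.0304, 0.0122 and 0.0338 (edgeR) and no overlap between the groups. Of the marker lists, those of neutrophils and of B and plasma cells each had 1 gene at 0 in a tumor. The part of these differences in *Phgdh*, *Slc38a2* and the other members was not tested.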

How the data were processed

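Whole lung tumors were profiled by poly(A) RNA sequencing with a stranded kit. The authors deposited raw counts per gene for 8 tumors. The submitters' processing notes name STAR 2.5.2b, featureCounts 1.5.0-p1 and GRCm38.p4. The strand setting, the treatment of multi-mapped reads and the annotation release are not given in the sources used here, so reads of overlapping genes may be shared. Groups follow the genotype label. A part of the genotype and 1 sequence are not reported here. Symbols came from GENCODE M21.

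Counts were compared with edgeR 4.0.16 in R 4.3.3 (filterByExpr, TMM, robust quasi-likelihood test, genotype alone), with Benjamini-Hochberg adjustment over all 14929 genes kept and a threshold of 0.05. The test was run on simulated data first. The SE of a log2 fold change is its size over the square root of the F statistic. CPM uses TMM-scaled library sizes, RPKM divides CPM by the deposited exon length, and centered log2 CPM uses a prior count of 2. Total counts were 5806599 to 21290402, so 3 counts equal 0.138 to 0.513 CPM. No pair of libraries of the same genotype agreed within sampling noise; pairs across genotypes were not compared.

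Alternatives were DESeq2 1.42.0, limma voom 3.58.1, other size factors, other filters, a replicate block, a sex term (sex read from *Xist* and Y-linked genes), a chromosome 6 offset and each tumor left out. A further 2, which combined leaving out *K-Ctrl* replicate 4 with the offset or the sex term, were chosen after seeing the data.

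All 35 members are named. Values per tumor are given for members past the threshold, for *Atf4* and for the smallest p of each role, and for further members where a single tumor stood apart, chosen after their values were seen. From each other pathway list up to 3 called genes, or the 1 with the smallest p, are named. The epithelial markers named were chosen after their values were seen. The members and lists were chosen with earlier results of these data known.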

Additional observations from a re-analysis of the deposited data

Results flagged for a closer look

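In each group of 4 tumors, the highest and lowest value was compared with the others by Dixon's ratio of gap to range. For the genes checked, 80 groups were tested and 8 held a tumor past its 95% limit, where chance alone flags about 1 in 20 groups (4.0 of 80).

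*K-Ctrl* replicate 4 stood above the other controls for *Asns* (46.23 CPM, others 18.33 to 22.27), *Mthfd2* (41.23 CPM, others 12.19 to 16.0) and *Sesn2* (42.75 CPM, others 28.24 to 30.53). *K-Setd2KO* replicate 2 stood above its group for *Phgdh* (18.51 CPM, others 8.885 to 9.927) and *Sars* (280.0 CPM, others 151.0 to 172.9). *K-Setd2KO* replicate 1 did so for *Wars* (227.0 CPM, others 114.9 to 123.2) and *Cebpg* (201.4 CPM, others 133.0 to 142.6), and *K-Setd2KO* replicate 3 for *Mthfd1* (159.2 CPM, others 112.7 to 119.9).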

How the results depend on the processing

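The median log2 fold change of the members stayed above 0 in all 19 alternatives, from 0.0224 without *K-Ctrl* replicate 3 to 0.309 without *K-Ctrl* replicate 4. Over all genes it was 0.0268 and 0.0335 in these fits, so without *K-Ctrl* replicate 3 the members did not exceed all genes. The count of members called higher (1 by edgeR with TMM) was 0 with no filter on low counts, 0 with the replicate block, 0 with the sex term, and 0 to 2 when single tumors were left out. The count called lower (1) was 2 with the DESeq2 Wald test, 0 with the replicate block, 0 with the sex term, 0 with the sex term and without *K-Ctrl* replicate 4, and 0 to 2 when single tumors were left out. No called direction reversed. Deviations of same-numbered tumors of the 2 genotypes correlated at -0.07, -0.03, 0.19 and -0.02, and not every tumor correlated best with its own number. Whether same-numbered tumors were handled together is not given in the sources used here and cannot be told from these values. With the replicate block 1341 of all genes were called, and the calls of *Eif2b1*, *Eif2ak4*, *Qars* and *Iars2* were lost along with those of *Slc38a2* and *Phgdh*. Over all genes, edgeR called 1897, DESeq2 3193 and the sex term 1237, and leaving out single tumors gave 763 (without *K-Ctrl* replicate 3) to 2058 (without *K-Setd2KO* replicate 2). With 4 tumors a group, differences smaller than the intervals given could not be detected, and low members such as *Chac1* and *Psph* rest on as few as 10 and 23 counts in a tumor. The causes of the lost calls were not tested.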
